A study of Mus musculus with 16 samples.

Results

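The genes that the sterol regulatory element-binding proteins (SREBPs) are known to drive, those of cholesterol and fatty acid synthesis, were followed in cultured mouse macrophages given TGF-β1. The set was a list of 34 gene symbols, found by symbol in the deposited count table. All 34 were among its 35275 genes, and all 34 passed the filter on low counts that left 13080 genes for testing. The rule that chose them uses no measured value, but the list was chosen with earlier results of these data known. By role, 8 genes belong to the mevalonate pathway, 11 lead from squalene to cholesterol, 6 carry sterol or control SREBP, 5 make fatty acids and 4 desaturate them.

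SREBPs are made as precursors in the membrane of the endoplasmic reticulum. When sterols are scarce, the escort protein SCAP carries them to the Golgi, where they are cut and released to the nucleus. When sterols are plentiful, INSIG proteins hold SCAP back. SREBP-2 acts mainly on the genes of cholesterol synthesis and SREBP-1 mainly on those of fatty acids. In macrophages, which take up lipid from particles and dying cells, the cholesterol arm of this programme is set against the LXR receptors that promote cholesterol export.

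Macrophages were grown from tibial bone marrow of C57BL/6 mice and polyadenylated RNA was sequenced in 16 libraries, 4 in each of 4 groups. Control mice were Smad7 fl/fl, with both Smad7 alleles floxed and no Cre. Knockout mice (KO) were CAGGCre-ER;Smad7 fl/fl, which carry in addition a tamoxifen-inducible Cre under the CAGG promoter, active in all tissues rather than in macrophages alone. Mice of both genotypes received tamoxifen at 20 mg/kg for 5 days at 1 month of age and were killed after 2 further weeks. The marrow cells were cultured with 15% serum and CSF-1 and then starved of serum for about 12 hours. Starvation was followed by 4 hours with TGF-β1 at 10 ng/ml or without it. The comparisons ask how TGF-β1 changed these genes in either genotype and what they did when Smad7, an inhibitor of TGF-β receptor signalling, was lost. Presence of Cre and loss of Smad7 coincide in the KO libraries and cannot be told apart. The labels do not say whether the 4 libraries of a group came from separate mice or cultures, so the p-values measure the spread between these libraries only. The extraction protocol speaks of 8 cDNA libraries where the labels list 16, and the labels do not settle which holds. No pair of the 16 held the same counts: over genes with at least 20 counts in a pair, the chi-square per degree of freedom was 6.1 or more in all 120 pairs, where counting noise alone gives about 1. The pairs within a group were not equally close. In fl/fl untreated, replicates 1 and 2 were at 7.91 and 3 and 4 at 7.61, against 18.8 to 32.3 between these pairs. KO untreated replicates 3 and 4 were at 6.1. In fl/fl TGF-β1, replicates 1 and 2 were at 16.6 but 3 and 4 at 74.4. If some of the 16 libraries nevertheless share a culture or an RNA sample, the p-values are too small.

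Library totals ran from 16865591 to 23741079 counts. Smad7 was at 3.89 to 6.03 CPM (read counts as a share of the scaled library total) in the fl/fl untreated libraries and at 37.3 to 58.3 in fl/fl TGF-β1. In KO it was at 1.28 to 2.00 CPM in untreated replicates 2 to 4, at 5.87 in untreated replicate 1 and at 10.3 to 19.7 with TGF-β1. The library labelled KO untreated replicate 1 resembled the treated ones: Pmepa1, a gene that TGF-β induces, was at 320 CPM there, against 1.70 to 2.73 in the other 3 KO untreated libraries and 292 to 419 in the 8 treated ones. Results that use this library are given with and without it. The library fl/fl TGF-β1 replicate 4 also stood apart, with 0.575% of its counts from mitochondrial genes and 14915 genes detected, against at least 1.20% and 15834 in the others. The 6 macrophage markers measured, among them Csf1r and Cd68, summed to between 15200 and 23300 CPM per library. Markers of lymphocytes summed to at most 1.10 CPM and those of fat cells to at most 1.29, so the fatty acid genes were read in cultures with next to no fat cell RNA.

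The promoters are shown first because these genes are grouped by a shared upstream regulator. RefSeq windows of 300 bases on build GRCm38.p6, from 250 bases before to 50 after a gene's start, were matched by symbol for 27 of the 34 genes. They number 35, since Dhcr7, Insig2 and Srebf1 have 3 listed starts each and Pmvk and Scap 2 each, and a gene counts as holding a motif if any of its windows does. Fdps, Fdft1, Sqle, Stard4, Scd1, Scd2 and Fads1 were not matched. On either strand, the classical sterol regulatory element, 10 bases long, was found in 0 of the 27 genes and in 0.0999% of 27025 genes with a window. Its shorter form TCACNCCAC, which lies within the classical one, was found in 1 of the 27 (3.7%, Hmgcs1) and in 1.44% of all genes. CCAAT, the box bound by NF-Y, a known partner of SREBP, was found in 22 of the 27 (81.5%) and in 41.1% of all genes. The E-box CACGTG was found in 5 of the 27 (18.5%) and in 8.09%. These are letter matches in a short window and not sites shown to be bound.

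The 250 bases before the RefSeq start are printed for 5 genes whose RNA fell with TGF-β1 in fl/fl macrophages, each read 5′ to 3′ in the gene's direction. Capitals mark CCAAT read on either strand (ATTGG on the printed one) and, in Hmgcs1, the match to TCACNCCAC. Hmgcs1 and Idi1 are shown as mevalonate genes whose fall held under every setting tried, Lss and Hsd17b7 as sterol genes with 1 and 3 CCAAT boxes, and Elovl6 as the gene with the largest fall, with none. The stretches lie at chr13:119690101-119690350 (plus strand), chr13:8885356-8885605 (plus strand), chr10:76531355-76531604 (plus strand), chr1:169969206-169969455 (minus strand) and chr3:129532136-129532385 (plus strand). RefSeq starts differ from the gene coordinates of the count table, given further below. By those, the stretches of Idi1, Lss and Hsd17b7 reach into the gene, and that of Hmgcs1 ends short of it. Both marked boxes of Idi1 and the last of Hsd17b7 then lie inside the gene.
Hmgcs1: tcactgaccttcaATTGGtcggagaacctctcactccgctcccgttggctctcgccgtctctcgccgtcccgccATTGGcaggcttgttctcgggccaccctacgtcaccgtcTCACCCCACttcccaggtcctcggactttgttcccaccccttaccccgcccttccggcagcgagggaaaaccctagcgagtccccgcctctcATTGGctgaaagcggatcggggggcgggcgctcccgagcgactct
Idi1: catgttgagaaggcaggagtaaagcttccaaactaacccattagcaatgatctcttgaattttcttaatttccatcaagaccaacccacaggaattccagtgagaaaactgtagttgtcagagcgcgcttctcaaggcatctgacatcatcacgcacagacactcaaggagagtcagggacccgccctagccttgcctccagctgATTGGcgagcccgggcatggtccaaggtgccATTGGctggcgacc
Lss: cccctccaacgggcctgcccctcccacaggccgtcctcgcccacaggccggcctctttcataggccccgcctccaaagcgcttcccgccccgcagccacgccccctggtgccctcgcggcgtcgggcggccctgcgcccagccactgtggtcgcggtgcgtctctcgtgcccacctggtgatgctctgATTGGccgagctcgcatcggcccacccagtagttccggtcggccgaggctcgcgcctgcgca
Hsd17b7: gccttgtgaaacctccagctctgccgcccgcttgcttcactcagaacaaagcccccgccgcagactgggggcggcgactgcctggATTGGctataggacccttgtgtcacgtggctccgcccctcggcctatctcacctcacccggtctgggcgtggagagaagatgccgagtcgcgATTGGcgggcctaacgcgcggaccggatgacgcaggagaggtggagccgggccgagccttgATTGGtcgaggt
Elovl6: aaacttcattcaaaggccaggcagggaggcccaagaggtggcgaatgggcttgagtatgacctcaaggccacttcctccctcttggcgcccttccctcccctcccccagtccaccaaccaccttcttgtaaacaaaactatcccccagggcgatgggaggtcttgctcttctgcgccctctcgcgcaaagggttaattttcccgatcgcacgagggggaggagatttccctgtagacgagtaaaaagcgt
Hmgcs1 and Hsd17b7 each hold 3 CCAAT boxes in these bases, Idi1 holds 2, Lss 1 and Elovl6 0. In the 300-base windows, 7 of the 8 matched genes that fell with TGF-β1 in fl/fl held CCAAT, and so did 15 of the 19 other matched genes.

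The programme was expressed in all 16 libraries, over a wide range of levels. Compared per gene length, as FPKM (counts divided by both the library total and the length of the gene), Fdps stood highest at a mean of 112 over the 4 groups. Fdps makes farnesyl diphosphate, the branch point to sterols and prenyl groups. Next came Fads1 at 87.5, Acly at 78.7, Scd2 at 73.2, Insig1 at 69.6, Hmgcs1 at 67.7 and Srebf2 at 65.6. In the middle stood Fads2 at 46.0, Cyp51 at 42.3, Mvd at 42.2, Msmo1 at 39.6, Fasn at 32.4, Srebf1 at 31.1, Ebp at 23.5, Fdft1 at 23.4 and Sc5d at 20.2. Below these, Stard4, Sqle, Dhcr7, Nsdhl, Pmvk, Scap, Acat2, Idi1 and Lss lay between 18.9 and 11.3 FPKM. The lowest were Mvk at 9.83, Insig2 at 8.65, Acaca at 8.57, Acss2 at 7.28, Ggps1 at 6.08, Tm7sf2 at 5.29, Hsd17b7 at 4.75, Elovl6 at 2.50 and Scd1 at 2.18. Each gene's range over the 16 libraries overlapped that of its neighbour in this order, so adjacent ranks were not separated. The pair of stearoyl-CoA desaturases differed most within a family, Scd2 at 46.5 to 102 FPKM and Scd1 at 0.671 to 4.36 per library. The thinnest measurement behind these values was 63 counts, of Scd1 in fl/fl TGF-β1 replicate 4.

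**Figure D1:**
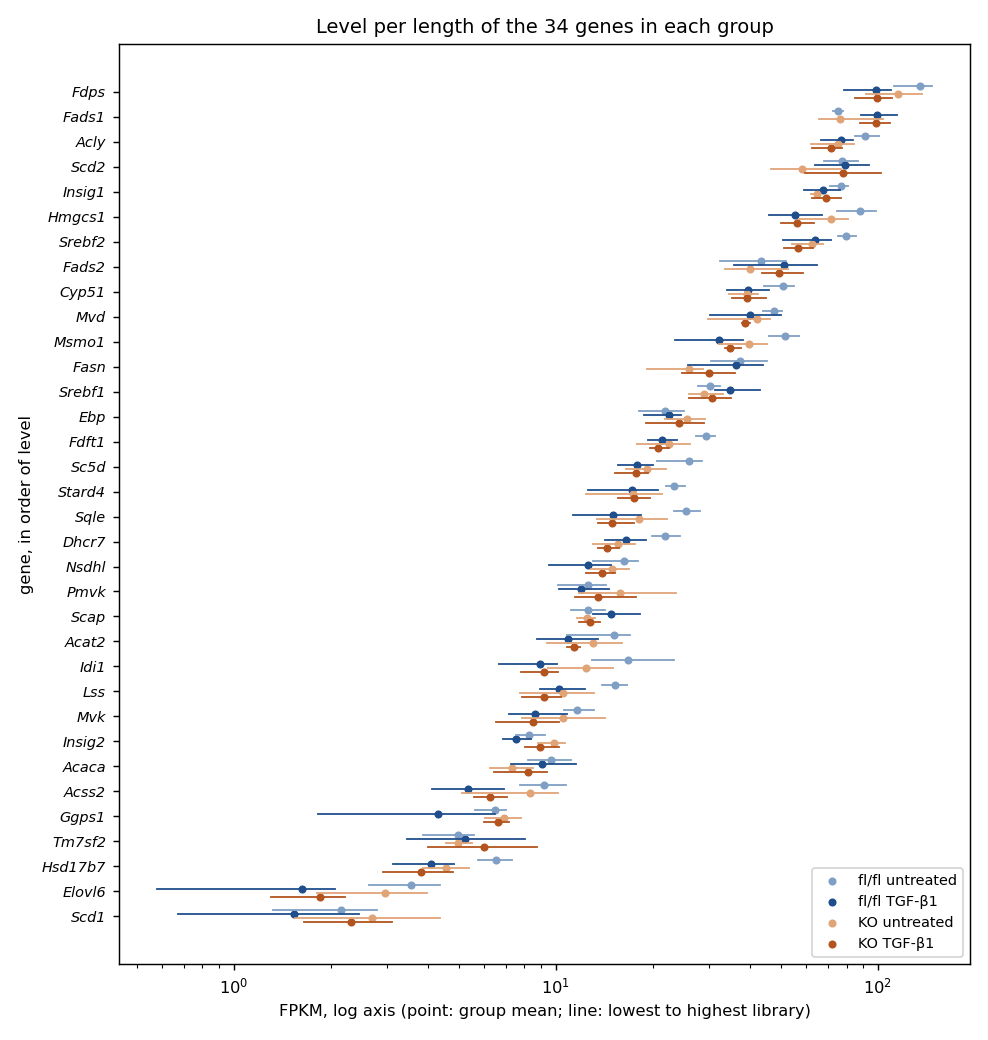
Level of the 34 genes in FPKM on a log axis, ordered by their mean over the 4 groups, with a point for each group's mean and a line from its lowest to its highest library. Fdps is highest and Scd1 and Elovl6 are lowest, and for Hmgcs1, Sqle, Msmo1 and Idi1 the fl/fl untreated point lies above the other 3 groups.

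TGF-β1 lowered part of the sterol arm in fl/fl macrophages. Of the 34 genes, 11 fell and 1 rose at an adjusted p under 0.05 by edgeR's quasi-likelihood test, and 22 did not pass. Over all genes tested, 7.61% fell and 7.87% rose. The median log2 fold change (TGF-β1 against untreated) was -0.33 over the 34 genes and -0.01 over all genes tested. Below 0 were 26 of the 34 and 51.7% of all genes tested. In CPM, 9 genes were lower with no overlap between the 4 treated and 4 untreated libraries and 1 was higher, where 12.5% and 11.4% of all genes were. Sterol genes made up 9 of the 11 that fell, 3 of the 8 in the mevalonate pathway and 6 of the 11 from squalene to cholesterol.

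In the mevalonate pathway, Hmgcs1, Idi1 and Fdps fell. Hmgcs1 (ENSMUSG00000093930, chromosome 13, 119690462 to 119708086, mm10) encodes the cytosolic HMG-CoA synthase that commits acetyl units to the pathway. It was at 321, 318, 240.3 and 261 CPM in the untreated and 212, 231, 152 and 149.9 in the treated fl/fl libraries. Every treated library lay below every untreated one, and the 4 treated values formed a higher and a lower pair. The log2 fold change was -0.61 ± 0.15 (SE, n = 4 libraries a group, edgeR adjusted p = 0.0113). Idi1 (ENSMUSG00000058258, chromosome 13, 8885501 to 8892451), the isomerase of isopentenyl diphosphate, was at 71.1, 50.1, 38.9 and 43.1 CPM untreated and at 32.0, 32.5, 28.1 and 20.4 with TGF-β1. Its groups did not overlap, and untreated replicate 1 stood well above the others. Idi1 changed by -0.84 ± 0.20 (log2, edgeR adjusted p = 0.00692). Fdps (ENSMUSG00000059743, chromosome 3, 89093592 to 89101967) was at 179, 183, 139 and 174 CPM untreated and 144, 136, 99.6 and 128 treated. Its groups overlapped in the lowest untreated and the highest treated library, and its change of -0.41 ± 0.14 sat at the threshold (log2, edgeR adjusted p = 0.0496) and was lost in 10 of the 16 fits that left out 1 library. The other 5 mevalonate genes, Acat2, Mvk, Pmvk, Mvd and Ggps1, did not pass and had log2 fold changes from -0.53 to -0.02. Ggps1, which makes the geranylgeranyl diphosphate used in protein prenylation, ranged from 4.38 to 16.4 CPM in the treated libraries, with fl/fl TGF-β1 replicate 4 lowest.

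**Figure D2:**
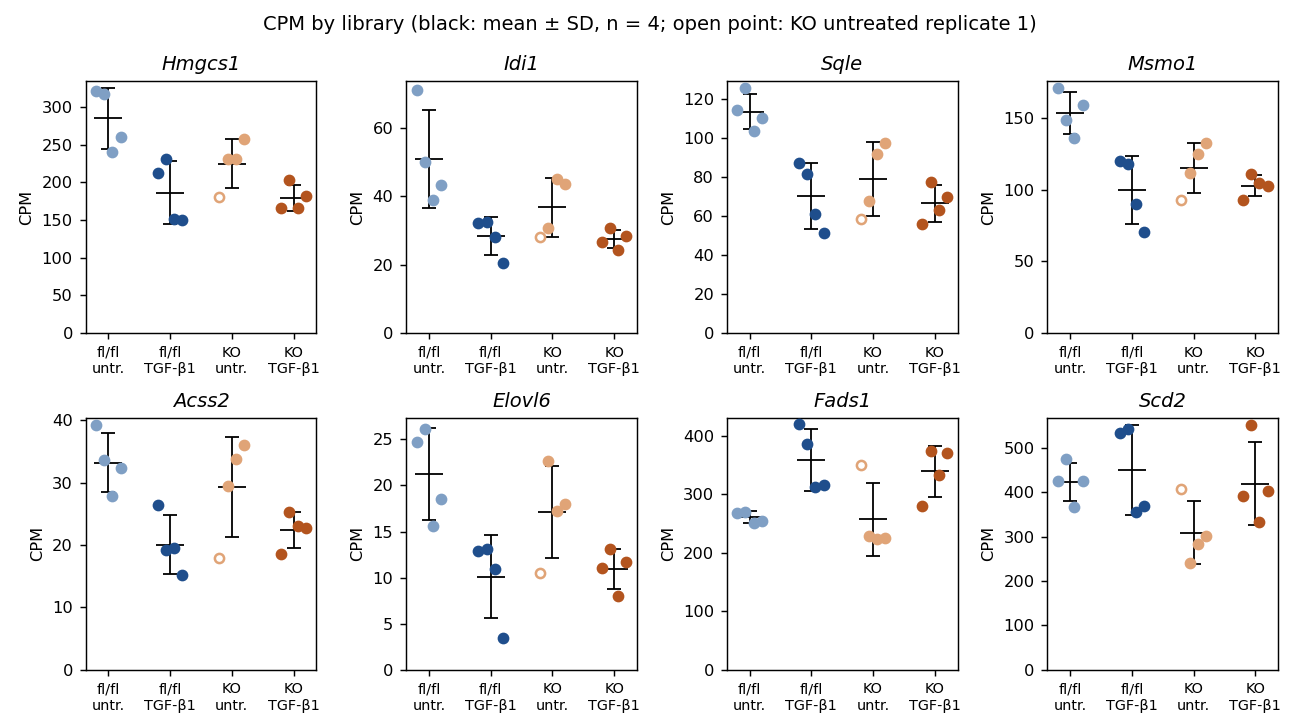
CPM of 8 genes in each library, by group, with black bars for the mean ± SD of 4 libraries and an open point for KO untreated replicate 1. Hmgcs1, Idi1, Sqle, Msmo1, Acss2 and Elovl6 are lower and Fads1 is higher in every fl/fl TGF-β1 library than in any fl/fl untreated one, and the open point lies within or next to the range of the KO TGF-β1 libraries.

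From squalene to cholesterol, 6 enzymes fell. Fdft1 (ENSMUSG00000021273, chromosome 14, 63145153 to 63177793), squalene synthase, stood at 90.2, 88.5, 77.6 and 78.9 CPM untreated and 71.7, 66.1, 56.6 and 59.3 treated, a log2 fold change of -0.40 ± 0.11 (edgeR adjusted p = 0.0231). Sqle (ENSMUSG00000022351, chromosome 15, 59315077 to 59331192), the squalene epoxidase that is a rate-limiting step of the sterol branch, went from 114, 125, 104 and 110.4 CPM to 87.1, 81.7, 61.1 and 51.1, a change of -0.69 ± 0.18 (log2, edgeR adjusted p = 0.0122). In both genes the treated libraries lay wholly below the untreated ones, and for Sqle they spread more widely. Lss (ENSMUSG00000033105, chromosome 10, 76531588 to 76557138), which closes squalene epoxide to lanosterol, had 116, 117, 96.7 and 99.6 CPM untreated and 91.3, 77.7, 64.0 and 65.5 treated, without overlap. The change of Lss was -0.52 ± 0.17 (log2, edgeR adjusted p = 0.045), and it missed the threshold with the replicate number as 1 block over both genotypes (edgeR adjusted p = 0.0837) but not with a block within each genotype (0.0343). It was lost in 11 of the 16 fits that left out 1 library.

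Of the later steps, Msmo1, Hsd17b7 and Sc5d fell. Msmo1 (ENSMUSG00000031604, chromosome 8, 64718139 to 64733792), which oxidises the C4 methyl groups of sterols, was at 171, 148, 136 and 159 CPM untreated and 119.7, 118, 89.6 and 70.4 treated (-0.63 ± 0.15 log2, edgeR adjusted p = 0.0086). Hsd17b7 (ENSMUSG00000026675, chromosome 1, 169949535 to 169969241), the sterol ketone reductase of the same demethylation, was at 34.1, 30.9, 26.3 and 29.4 CPM and 21.9, 23.7, 14.8 and 18.6 (-0.61 ± 0.18 log2, edgeR adjusted p = 0.0255). Neither gene overlapped between the groups. Sc5d (ENSMUSG00000032018, chromosome 9, 42254177 to 42264300), sterol C5-desaturase, was at 64.8, 62.8, 46.3 and 60.5 CPM untreated and 42.4, 47.8, 35.8 and 41.2 treated, and overlapped only because untreated replicate 3 was low (-0.49 ± 0.13 log2, edgeR adjusted p = 0.0149). Dhcr7 (ENSMUSG00000058454, chromosome 7, 143823145 to 143848410), the reductase that turns 7-dehydrocholesterol into cholesterol, was at 69.3, 62.5, 55.6 and 59.0 CPM untreated and 56.7, 51.7, 41.0 and 44.7 treated. It did not pass in edgeR with all 16 libraries (-0.34 ± 0.12 log2, adjusted p = 0.0696) and fell in the fit without KO untreated replicate 1 (-0.35 ± 0.11, edgeR adjusted p = 0.04). With all 16 it also fell with a replicate block within each genotype (edgeR adjusted p = 0.0223) and in limma on log2(FPKM + 1) and log2(FPKM + 0.1) (limma adjusted p = 0.0208 and 0.0214). Cyp51, Tm7sf2, Nsdhl and Ebp, which demethylate, reduce and isomerise sterol intermediates, did not pass and had log2 fold changes from -0.32 to 0.11.

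The sterol genes outside the calls mostly had negative log2 fold changes in fl/fl. Called or not, 8 of the 8 mevalonate genes and 9 of the 11 from squalene to cholesterol were negative there. Acat2, which joins acetyl units for the first step, averaged 34.3 ± 6.73 CPM (SD over 4 libraries) without and 25.6 ± 5.76 with TGF-β1 in fl/fl, and 28.6 ± 6.23 without and 25.5 ± 1.81 with it in KO. Cyp51, lanosterol demethylase, was at 200.4 ± 18.2, 162 ± 29.7, 150.1 ± 16.3 and 154 ± 21.9 CPM in the same order. For Cyp51 the fl/fl untreated mean was the highest of the 4, and its libraries overlapped those of both treated groups. Mvk and Pmvk, the kinases of mevalonate, were at 15.9 to 32.2 CPM and at 12.3 to 26.9 CPM over all libraries. Mvd, the decarboxylase that follows them, was at 51.0 to 89.2 CPM. Nsdhl, another enzyme of sterol demethylation, was at 21.0 to 39.1, Ebp, the sterol isomerase, at 31.9 to 48.1 and Tm7sf2, a sterol reductase, at 5.29 to 12.2 CPM. In each of these 6 genes the treated and untreated libraries overlapped within both genotypes when all were kept. With KO untreated replicate 1 set aside, the KO groups of Mvd (77.6 to 80.5 CPM untreated, 65.1 to 70.5 treated) and Mvk (23.2 to 32.2 and 15.9 to 22.5) did not overlap, and those of the other 4 did.

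With all 16 libraries and no block, the regulators themselves did not pass. Srebf2, which encodes SREBP-2, was at 417, 428, 375 and 374 CPM untreated and 376, 356, 259 and 334 treated, with a log2 fold change of -0.27 ± 0.13 (edgeR adjusted p = 0.181). With a replicate block within each genotype it was at -0.28 and did not pass (edgeR adjusted p = 0.0891), and with KO untreated replicate 1 left out as well it was called lower (-0.28 ± 0.09, edgeR adjusted p = 0.0467). Srebf1, which encodes both SREBP-1 forms, was at 119.6, 131, 129.6 and 139 CPM and 149.8, 145, 137 and 188, 0.26 ± 0.12 log2 (edgeR adjusted p = 0.163). Scap was at 47.6, 60.3, 51.7 and 53.1 CPM and 58.4, 63.3, 59.2 and 78.1, 0.28 ± 0.11 log2 (edgeR adjusted p = 0.101). The groups of all 3 genes overlapped, with fl/fl TGF-β1 replicate 4 the highest for Srebf1 and Scap. Insig1, the INSIG gene that is itself an SREBP target, changed by -0.13 ± 0.11 log2 (95% interval -0.34 to 0.08, edgeR adjusted p = 0.488). Insig2 changed by -0.08 ± 0.11 (95% interval -0.29 to 0.13, edgeR adjusted p = 0.698). RNA levels do not show how much SREBP was processed. Stard4, a soluble carrier that moves cholesterol between membranes, was at 119 ± 8.53 CPM (SD, n = 4) untreated and 91.4 ± 20.9 treated and did not pass.

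The fatty acid genes did not move as one group. Of the 5 synthesis genes, Acss2 and Elovl6 fell and Acly, Acaca and Fasn did not pass. Acss2 (ENSMUSG00000027605, chromosome 2, 155517948 to 155585724), which makes acetyl-CoA from acetate, was at 39.2, 33.6, 27.8 and 32.3 CPM untreated and 26.5, 19.2, 19.4 and 15.1 treated. Elovl6 (ENSMUSG00000041220, chromosome 3, 129532386 to 129638495), the elongase of palmitate, was at 24.7, 26.1, 15.6 and 18.5 CPM untreated and 12.9, 13.1, 11.0 and 3.49 treated. Both genes were lower in each treated library than in any untreated one, and fl/fl TGF-β1 replicate 4 was the lowest for both. Acss2 changed by -0.73 ± 0.20 log2 (edgeR adjusted p = 0.0171), and Elovl6 by -1.07 ± 0.32 (edgeR adjusted p = 0.0308), which is 0.477 times its untreated level. The call of Elovl6 was lost without the filter on low counts (edgeR adjusted p = 0.071), with the compared groups alone (0.0529) and in 3 of the 16 fits that left out 1 library (up to 0.0857), those lacking untreated replicate 1, untreated replicate 2 or treated replicate 3 of fl/fl. Fasn, fatty acid synthase, was at 359 ± 67.5 CPM (SD, n = 4) untreated and 361 ± 91.1 treated. Acaca, the acetyl-CoA carboxylase, was at 92.1 ± 14.7 and 90.0 ± 23.3 CPM, and Acly, ATP citrate lyase, at 405 ± 37.0 and 354 ± 40.4.

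Fads1 was the 1 gene that rose. Fads1 (ENSMUSG00000010663, chromosome 19, 10182888 to 10196870), the delta-5 desaturase of polyunsaturated fatty acids, was at 268, 270.1, 250.2 and 253 CPM untreated and 419, 385, 312 and 316 treated. The untreated libraries lay close together and below every treated one. Fads1 changed by 0.46 ± 0.15 log2 (edgeR adjusted p = 0.043). That call was lost with the replicate number as a block, over both genotypes (edgeR adjusted p = 0.0576) or within each (0.0711), and in 11 of the 16 fits that left out 1 library. Its neighbour on chromosome 19, Fads2, the delta-6 desaturase, was at 79.0, 69.4, 48.5 and 64.9 CPM untreated and 103, 96.6, 55.0 and 68.1 treated and overlapped between the groups. Scd2 was at 426, 475, 368 and 426 CPM untreated and 534, 543, 356 and 370.1 treated. In Fads2 and Scd2, fl/fl TGF-β1 replicates 1 and 2 were above all untreated libraries and replicates 3 and 4 were not. Scd1 was at 10.4 ± 3.09 CPM (SD, n = 4) untreated and 7.83 ± 4.61 treated and did not pass.

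**Figure D3:**
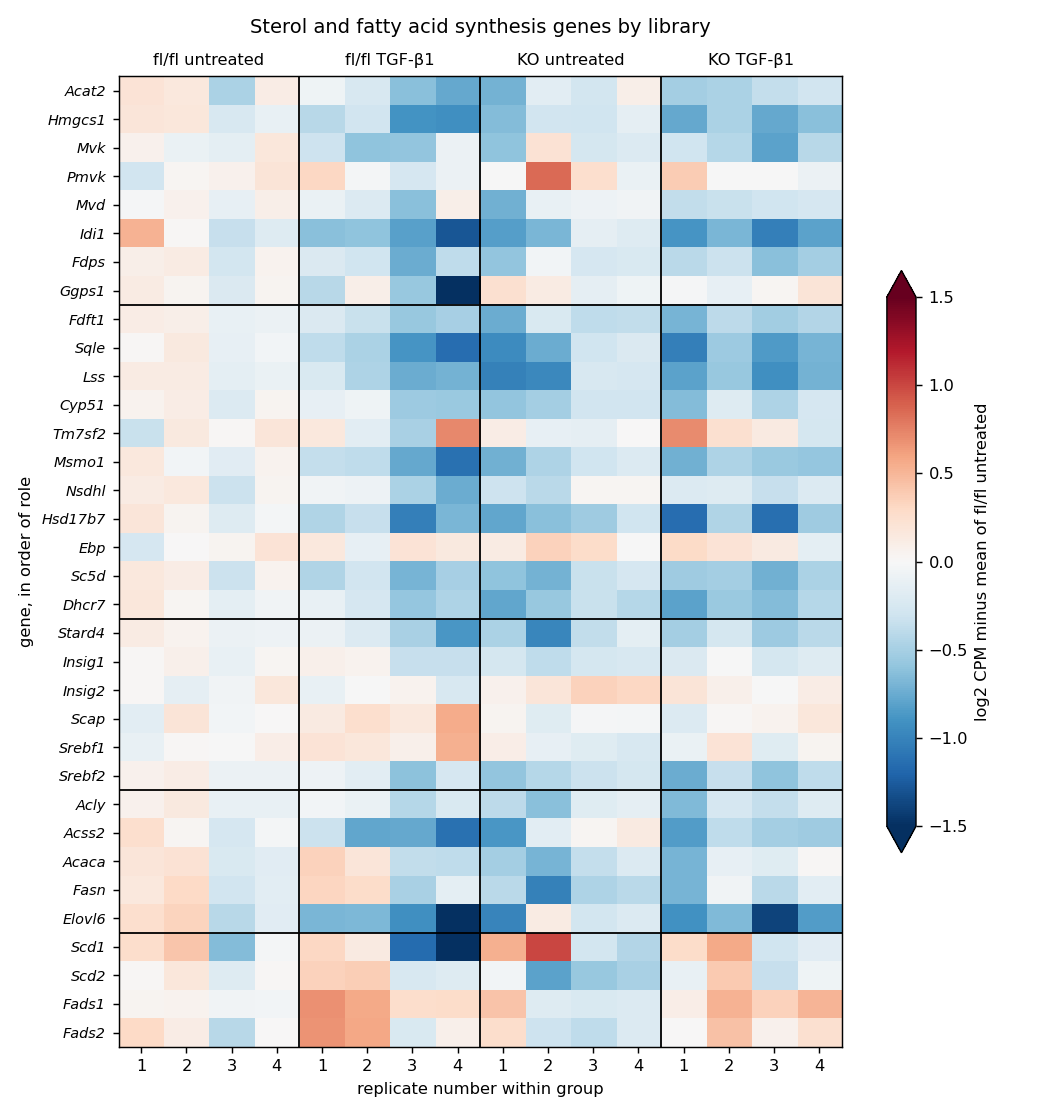
Log2 CPM of each gene in each library minus the gene's mean in fl/fl untreated, with genes in rows by role and the 16 libraries in columns by group and replicate number. Blue rows in the sterol genes mark lower levels in fl/fl TGF-β1 and in both KO groups, red cells of Fads1 mark higher levels with TGF-β1, and the colour scale ends at 1.5 in both directions.

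Summed over a role, the sterol genes separated the fl/fl groups. The 8 mevalonate genes summed to 284 to 358 FPKM in fl/fl untreated and to 195 to 266 in fl/fl TGF-β1. In KO they summed to 226 to 329 untreated and to 218 to 262 treated. The 11 genes from squalene to cholesterol summed to 242 to 282 FPKM in fl/fl untreated and to 178 to 221 in fl/fl TGF-β1, and in KO to 183 to 234 and 185 to 216. In both roles the fl/fl groups were apart and the KO groups overlapped, with KO untreated replicate 1 lowest of its group in both. The other 3 KO untreated libraries were at 293 or more for the mevalonate genes, above every KO TGF-β1 library. Fdps and Hmgcs1 carry most of the first sum, so it follows those 2 genes.

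Libraries of a group shifted as a block over these genes. In fl/fl untreated, replicate 3 was the lowest of the 4 for 27 of the 34 genes. In fl/fl TGF-β1, replicate 1 was the highest for 19, and replicates 3 and 4 were the lowest for 17 and 14. The genes are therefore not independent of each other within a library, and 1 shift moves many counts. The number that fell was 4 without fl/fl untreated replicate 1 (5.13% of all genes fell), 6 without fl/fl untreated replicate 2 (5.76%), 5 without fl/fl TGF-β1 replicate 3 (6.33%) and 6 without fl/fl TGF-β1 replicate 4 (6.31%). Without KO untreated replicate 1 it was 12 with 1 rising (9.23% and 8.91% of all genes). With a replicate block within each genotype in that fit it was 16 with 1 rising (11.4% and 10.2%), Acat2, Mvk, Cyp51 and Srebf2 being added. Hmgcs1, Idi1, Sqle and Msmo1 fell in all 16 fits that left out 1 library and in all 11 other alternatives. Leaving out 1 library lost the calls of Fdft1 and Hsd17b7 in 4 of the 16 fits (edgeR adjusted p up to 0.0737 and 0.0827). Those of Sc5d and Acss2 were lost in 2 of the 16 (up to 0.0532 and 0.06). Macrophage markers summed to 19200 to 21300 CPM in fl/fl untreated and 15200 to 19500 in fl/fl TGF-β1, and the 9 proliferation markers to 940 to 993 and 772 to 1070. Lyz2, the highest macrophage marker, was at -0.46 log2 with TGF-β1 in fl/fl. Cd68 was at -0.09, Fcgr1 at 0.03, Itgam at 0.04, Mertk at 0.14 and Csf1r at 0.26, and none of the 6 passed. The part of either marker set in the lower sterol genes was not tested, and in bulk RNA fewer cells of a type and less RNA per cell cannot be told apart. Per the table's coordinates, Fdft1 overlaps Ctsb, Lss overlaps 4930483K19Rik and Acss2 overlaps Ggt7, Gss and Acss2os on the opposite strand, as Mvd, Ggps1, Scap, Srebf1 and Acaca do with other genes. On the same strand, Tm7sf2 overlaps Vps51 and Acss2 also overlaps Mipep-ps and Gm20637. Whether the counting used strand is not given in the sources used here, so reads of these neighbours may be mixed in. How reads that fit both Scd1 and Scd2 were counted is not given there either.

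**Figure D4:**
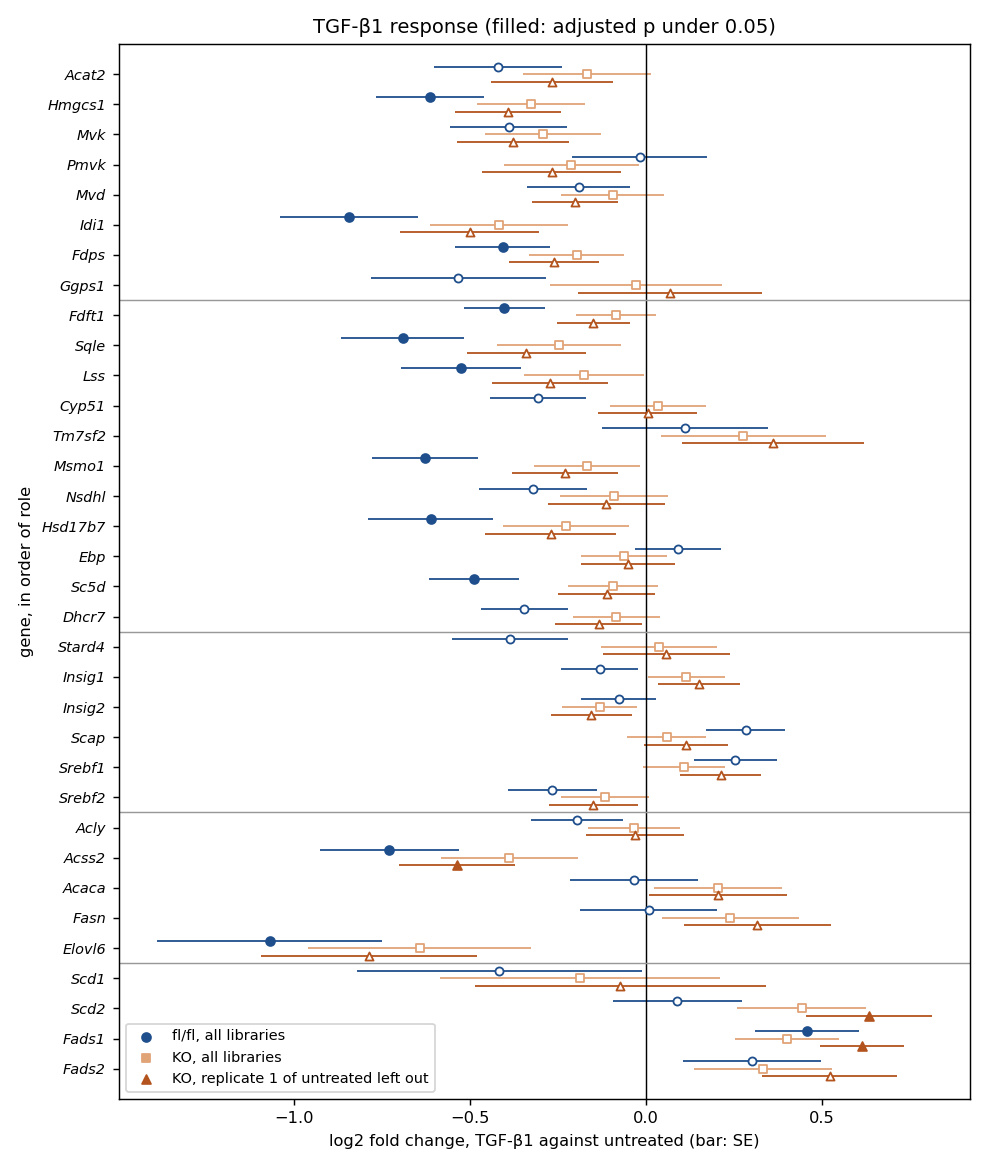
Log2 fold change of TGF-β1 against untreated for each gene (bar: SE), in fl/fl, in KO with all libraries and in KO without untreated replicate 1, with filled symbols at an edgeR adjusted p under 0.05. In fl/fl 11 genes are filled below 0 and Fads1 above it, in KO with all libraries none is filled, and without KO untreated replicate 1 Acss2, Scd2 and Fads1 are.

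In KO macrophages the response depended on 1 library. With all 8 KO libraries, edgeR called 0 of the 34 genes lower and 0 higher, against 2.97% and 2.19% of all genes. No gene of the list was free of overlap in either direction (3.06% of all genes were lower and 2.98% higher). DESeq2 also called 0, where 1.61% of the 35275 genes were lower and 1.43% higher. In edgeR 4 genes of the list had an unadjusted p under 0.05, as did 2311 of the 13080 genes tested. The median log2 fold change was -0.09 over the 34 genes and -0.03 over all genes. KO untreated replicate 1 was below its 3 companions for 17 of the genes and above them for 7, and for 30 of 34 it was nearer to the mean of KO TGF-β1 than to that of the other KO untreated libraries. Without it, Acss2 fell and Fads1 and Scd2 rose (6.88% of all genes fell and 8.33% rose), 10 genes were lower and 3 higher without overlap (12.6% and 11.5% of all genes), and the median was -0.12 against -0.01 over all genes. With the replicate number as a block in that fit, Hmgcs1 was also called, for 2 lower and 2 higher (5.89% and 7.41% of all genes). With a block within each genotype it was 4 lower and 3 higher (7.76% and 9.61%), Mvk, Fdps and Fads2 being added.

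A desaturase had the lowest p of the list in KO without untreated replicate 1. Fads1 was at 350.1, 228, 223 and 225 CPM in the KO untreated and 279.7, 374, 332 and 369.9 in the KO TGF-β1 libraries. The first untreated value is that of replicate 1 and lies among the treated ones. The other 3 lie below all 4, and without replicate 1 the log2 fold change was 0.62 ± 0.12 (SE, 3 against 4 libraries, edgeR adjusted p = 0.00107). Scd2, the more highly expressed stearoyl-CoA desaturase of these cells, was at 409, 242, 284 and 301 CPM untreated and 392, 553, 333 and 403 treated, 0.64 ± 0.18 log2 without replicate 1 (edgeR adjusted p = 0.0194). Acss2 was at 17.9, 29.5, 33.7 and 36.1 CPM untreated and 18.5, 25.3, 23.1 and 22.7 treated, -0.54 ± 0.17 log2 (edgeR adjusted p = 0.0341). In both genes too, replicate 1 fell within or below the treated range and its 3 companions on the untreated side. With all libraries the adjusted p-values were 0.136 for Fads1, 0.197 for Scd2 and 0.324 for Acss2.

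The sterol genes that fell in fl/fl had negative log2 fold changes in KO. With no block, they did not pass with all libraries or with only KO untreated replicate 1 left out. With that library left out, Hmgcs1 was called lower under either replicate block, and Fdps under the block within genotype. With fl/fl TGF-β1 replicate 4 left out too and no block, Hmgcs1, Idi1 and Elovl6 were called lower. Hmgcs1 was at 180, 231, 231 and 257 CPM in KO untreated and 166, 203, 166 and 182 in KO TGF-β1, -0.39 ± 0.15 log2 without replicate 1 (edgeR adjusted p = 0.1). Idi1 was at 27.9, 30.7, 44.9 and 43.4 CPM and 26.7, 30.7, 24.3 and 28.3, -0.50 ± 0.20 log2 (edgeR adjusted p = 0.112). Once replicate 1 was set aside, both genes were lower in every treated library. Sqle was at 58.6, 67.5, 91.9 and 97.6 CPM and 55.8, 77.6, 62.8 and 69.9, with a change of -0.34 ± 0.17 (log2, edgeR adjusted p = 0.234). Msmo1 was at 92.7, 111, 124 and 132 CPM and 92.8, 111, 104 and 103, -0.23 ± 0.15 log2 (edgeR adjusted p = 0.406). For Msmo1 the highest treated value, 111.1, lay just under the lowest untreated one other than replicate 1, 111.4, and Sqle overlapped. Elovl6 was at 10.5, 22.6, 17.2 and 18.0 CPM untreated and 11.0, 13.1, 7.96 and 11.6 treated, -0.79 ± 0.31 log2 (edgeR adjusted p = 0.105), and its groups did not overlap without replicate 1. Fdps, Fdft1, Lss, Hsd17b7, Sc5d and Dhcr7 had log2 fold changes from -0.27 to -0.11 in that fit and did not pass.

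The regulators did not pass in KO either. Without KO untreated replicate 1, the log2 fold changes were -0.15 ± 0.13 for Srebf2 (edgeR adjusted p = 0.564), 0.21 ± 0.12 for Srebf1 (0.282) and 0.12 ± 0.12 for Scap (0.658). Insig1 was at 0.15 ± 0.12 (edgeR adjusted p = 0.51) and Insig2 at -0.15 ± 0.11 (0.487). Across the list, the sign of the change was shared by both genotypes for 29 of 34 genes with all libraries (85.3%, against 70.9% of all genes tested), 22 of them negative in both. Cyp51, Ebp, Stard4, Insig1 and Acaca had opposite signs. Without KO untreated replicate 1 the share was 82.4%, against 70.8% of all genes tested, and Ggps1 had opposite signs too.

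A different response in the 2 genotypes was tested directly, as KO response minus fl/fl response. None of the 34 genes passed, and 0% of all genes tested did. Unadjusted, edgeR gave p under 0.05 for 2 of the 34 and for 275 of the 13080 genes tested (1 and 256 without KO untreated replicate 1). The smallest edgeR adjusted p among the 34 was 0.993. DESeq2 also called 0 of them (0.00283% of the 35275 genes were lower and 0% higher). The sign was positive for 28 of 34 genes, a smaller fall or larger rise in KO, with a median of 0.24 against -0.01 over all genes. Of all genes tested, 51.6% were negative. This difference uses the same fl/fl libraries as the fl/fl response and is not independent of it. Sqle had the value 0.44 ± 0.25 (95% interval -0.04 to 0.93), Msmo1 0.46 ± 0.21 (0.04 to 0.88) and Idi1 0.43 ± 0.28 (-0.11 to 0.97), all on the log2 scale. For Fads1 it was -0.06 ± 0.21 (-0.47 to 0.35). Among the regulators it ran from -0.22 for Scap to 0.25 for Insig1, with Srebf1 at -0.15, Srebf2 at 0.15 and Insig2 at -0.05. The gene values above include KO untreated replicate 1. Without it the median was 0.24 and again none passed. The largest value among the 11 genes from squalene to cholesterol was then 0.402, against 0.462 with all libraries. Among the mevalonate genes the largest was 0.605, against 0.505. The 95% intervals given are wide beside the responses themselves, so neither an equal response nor a response lost in KO is shown.

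Most of these genes had lower values in untreated KO than in untreated fl/fl macrophages, and none passed the adjusted test in edgeR. Of the 34, 29 were below 0, where 45.9% of all genes tested were. The median log2 fold change (KO against fl/fl) was -0.30 against 0.03 over all genes. In edgeR 0 were called (0.0382% of all genes were lower and 0.00765% higher). Unadjusted, 17 had an edgeR p under 0.05, as did 1421 of the 13080 genes tested. DESeq2 called 1, Dhcr7, lower, where 0.102% of the 35275 genes were lower and 0.051% higher. In 12 genes every KO library lay below every fl/fl library and in 0 above, where 4.11% and 3.94% of all genes did. These were Fdft1, Sqle, Lss, Cyp51, Msmo1, Hsd17b7 and Dhcr7 of the sterol branch, Stard4, Insig1 and Srebf2 among carrier and regulators, and Acly and Fasn of fatty acid synthesis. Without KO untreated replicate 1 there were 15 such genes (7.05% of all genes), 1 higher, Insig2 (7.18%), a median of -0.29 and again 0 called by edgeR (0.0688% of all genes were lower and 0.0306% higher).

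Values by library show how narrow these gaps were. Dhcr7 was at 69.3, 62.5, 55.6 and 59.0 CPM in fl/fl untreated and 35.8, 41.5, 48.6 and 45.6 in KO untreated, -0.52 ± 0.12 log2 (edgeR adjusted p = 0.224). Lss was at 116, 117, 96.7 and 99.6 CPM and 52.9, 54.7, 90.5 and 89.8, -0.58 ± 0.17 log2 (edgeR adjusted p = 0.387). In KO, Lss formed a lower pair, replicates 1 and 2, and a higher pair close under the lowest fl/fl library. Sqle was at 114, 125, 104 and 110.4 CPM and 58.6, 67.5, 91.9 and 97.6, -0.52 ± 0.18 log2 (edgeR adjusted p = 0.414), with the same pairs. These fold changes include KO untreated replicate 1. Without it the most negative value from squalene to cholesterol was -0.506, against -0.576 with it. Fasn was at 396, 434, 289 and 316 CPM in fl/fl and 268, 176, 257 and 268 in KO, with KO untreated replicate 2 far below its 3 companions. That library also had 4.26% of its counts from ribosomal protein genes and 2.71% from mitochondrial genes, the highest shares of all 16, and their part in its low values was not tested.

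Among the regulators in untreated cells, Srebf2 and Insig1 were separated between the genotypes. Srebf2 was at 417, 428, 375 and 374 CPM in fl/fl and 264, 296, 319 and 332 in KO, -0.40 ± 0.13 log2 (edgeR adjusted p = 0.406). Insig1 was at 209, 218, 191 and 212 CPM and 173, 159.5, 172 and 176, -0.28 ± 0.11 log2 (edgeR adjusted p = 0.414). Both genes had no overlap between the genotypes, and neither passed. With each library left out in turn, KO untreated replicate 1 included, Srebf2 ran from -0.459 to -0.357 and Insig1 from -0.334 to -0.259. Insig2 was at 0.22 ± 0.11 log2 (edgeR adjusted p = 0.457), Srebf1 at -0.11 ± 0.12 (0.754) and Scap at -0.05 ± 0.11 (0.906). This comparison and the fl/fl response share the 4 fl/fl untreated libraries and are not independent of each other.

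**Figure D5:**
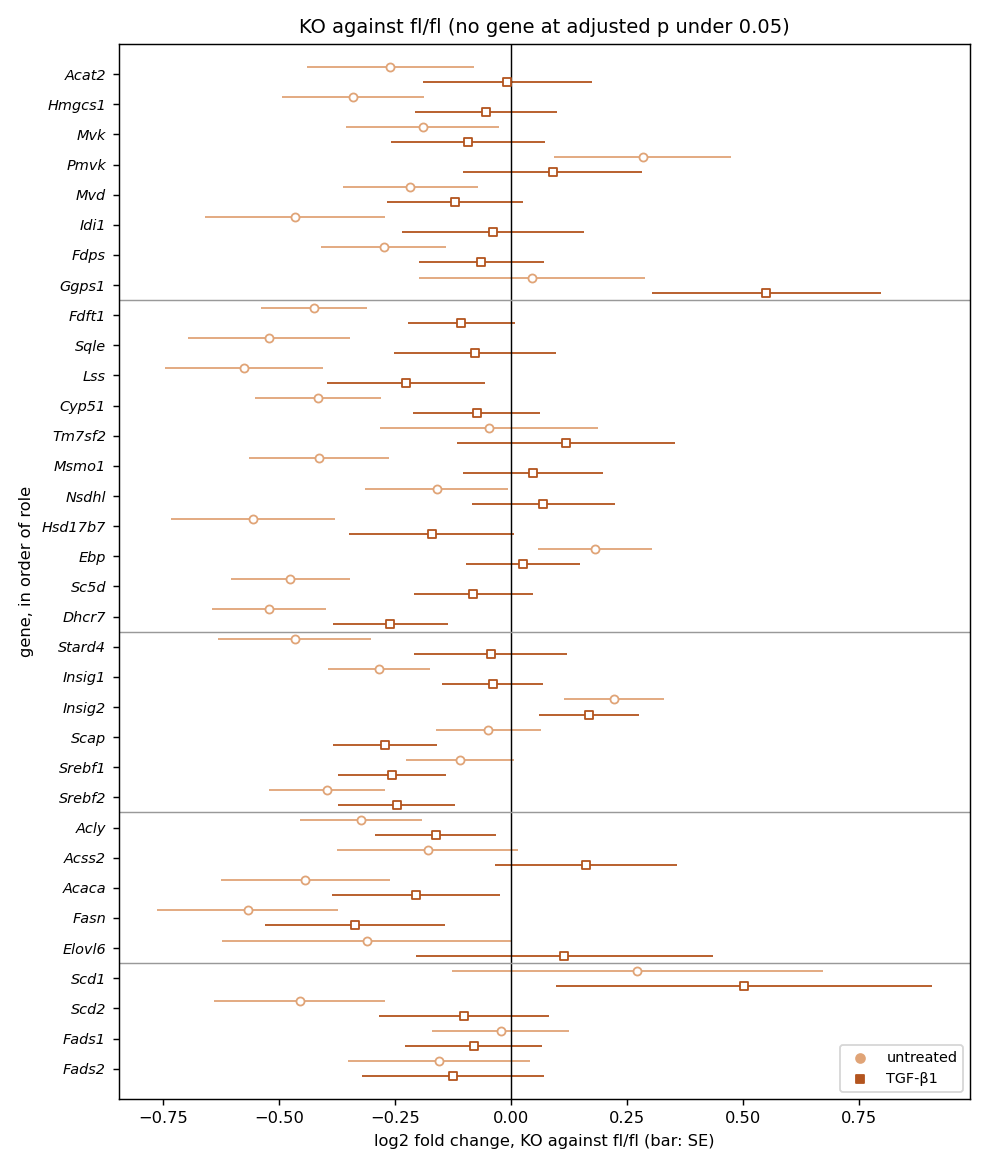
Log2 fold change of KO against fl/fl for each gene (bar: SE), in untreated cells (circles) and with TGF-β1 (squares). The untreated values of the sterol genes lie mostly between -0.2 and -0.6 and those with TGF-β1 nearer 0, and no gene is at an edgeR adjusted p under 0.05 in either.

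With TGF-β1, no gene of the list passed a test between the genotypes. Of the 34, 24 were below 0, where 47.8% of all genes tested were. The median log2 fold change was -0.08 against 0.01 over all genes. In CPM, 0 of the 34 were free of overlap in either direction (2.61% of all genes were lower and 2% higher). In edgeR 0 were called (0.0306% of all genes lower and 0.00765% higher). Unadjusted, 3 had an edgeR p under 0.05, as did 734 of the 13080 genes tested. DESeq2 called 0, where 0.0397% of the 35275 genes were lower and 0.017% higher. Without KO untreated replicate 1 edgeR again called 0 (0.0535% of all genes were lower). Hmgcs1 averaged 186 ± 41.6 CPM (SD, n = 4) in fl/fl and 179 ± 17.6 in KO. Sqle was at 70.2 ± 17.0 and 66.5 ± 9.36 CPM, and Fads1 at 358 ± 52.6 and 339 ± 43.9. In each of these the difference was smaller than the SD of either group. For the regulators, Srebf1 differed by -0.26 ± 0.12 log2 (edgeR adjusted p = 0.877), Srebf2 by -0.25 ± 0.13 (0.877), Scap by -0.27 ± 0.11 (0.877), Insig1 by -0.04 ± 0.11 (0.966) and Insig2 by 0.17 ± 0.11 (0.877). The sign of Insig1 turned in both limma fits on FPKM and in the fits without fl/fl TGF-β1 replicate 1 or 2.

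Other genes of the same pathways were counted from 4 further lists, and their counts read against the 7.61% of all genes that fell and the 7.87% that rose with TGF-β1 in fl/fl. Of 11 further sterol pathway or SREBP target genes tested, 2 fell and 1 rose in fl/fl. Lbr, which holds a sterol reductase domain beside its lamin-binding part, changed by -1.35 ± 0.18 log2 (edgeR adjusted p = 0.000472). Lpin1, a phosphatidate phosphatase, changed by -1.36 ± 0.18 (edgeR adjusted p = 0.000461). Both fell in KO as well with all libraries kept, Lbr by -1.06 ± 0.18 (edgeR adjusted p = 0.00808) and Lpin1 by -0.86 ± 0.18 (0.0179). Cyb5r3, a reductase that feeds electrons to desaturases, rose by 0.41 ± 0.12 in fl/fl (edgeR adjusted p = 0.0216). Of 12 genes of the machinery that processes and degrades SREBP, SCAP and INSIG, 1 fell and 1 rose in fl/fl. These were Erlin1, part of a complex that aids sterol-driven degradation, at -0.49 ± 0.12 (edgeR adjusted p = 0.00834) and 2410131K14Rik, which encodes the SREBP activator SPRING, at 0.43 ± 0.13 (0.0335).

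Of 17 other fatty acid and lipid synthesis genes tested, 2 fell in fl/fl and 0 rose. Acsl4, an acyl-CoA synthetase that prefers arachidonate, changed by -0.73 ± 0.23 log2 (edgeR adjusted p = 0.0362) and Elovl5, an elongase of polyunsaturated fatty acids, by -0.44 ± 0.13 (0.0263). Of 14 LXR and cholesterol handling genes, 3 rose and 1 fell in fl/fl. Mylip, a ubiquitin ligase that LXR induces, rose by 1.12 ± 0.20 (edgeR adjusted p = 0.00161), Rxra, the partner receptor of LXR, by 1.04 ± 0.21 (0.00291), and Abca1, the cholesterol exporter, by 0.72 ± 0.18 (0.0129). Cyp27a1, the sterol 27-hydroxylase, changed by -0.76 ± 0.19 (edgeR adjusted p = 0.0107). With all KO libraries, Mylip rose by 0.79 ± 0.20 (edgeR adjusted p = 0.0327) and Rxra by 0.74 ± 0.21 (0.0463) in KO, 2 higher and 0 lower of the 14 (2.19% and 2.97% of all genes). Leaving out KO untreated replicate 1 gave 5 higher and 1 lower (8.33% and 6.88%). Mylip then rose by 1.17 ± 0.12 (edgeR adjusted p = 8.94e-07), Rxra by 1.07 ± 0.16 (0.000102) and Abca1 by 0.84 ± 0.13 (0.000141), Npc1 and Abcg1 rose too, and Cyp27a1 was at -0.70 ± 0.18 (0.0114). In that fit Erlin1 of the machinery list also fell and Acsl1 of the lipid list rose, where all libraries gave 0 for both lists. In fl/fl each further list had at most 3 genes called in either direction, so no share is read from them. The median over the 14 LXR and cholesterol handling genes was 0.13 in fl/fl, and over the 11 further sterol genes -0.17.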

How the data were processed

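The submitters' processing notes name Cufflinks 2.1.1, TopHat2 2.0.9 and HTSeq 0.6.1 and, as builds, GRCm38.p6 and mm10, but not which step used which, and strand and multi-mapping settings are not given in the sources used here. The authors deposited raw read counts for 35275 genes. The FPKM values deposited by the authors equalled the count divided by gene length and library total, within 0.1%, for 100% of the positive values.

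Counts were scaled by TMM in edgeR 4.0.16 (R 4.3.3), filterByExpr on the 4 groups kept 13080 genes, and 1 quasi-likelihood model with a mean per group was fitted to the 16 libraries and again without KO untreated replicate 1. Tests were F-tests adjusted by Benjamini-Hochberg over all 13080 genes, at 0.05. CPM is relative to the scaled total. All 34 genes are described by level. Fold changes are named for genes past the threshold in either fit and for Srebf1, Srebf2, Scap, Insig1 and Insig2, and up to 2 genes per further list and direction, those with the lowest p. Abca1, Npc1 and Abcg1 were named outside this rule, after their values were seen. The members, lists and rules were chosen with earlier results of these data known.

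Alternatives were DESeq2 1.42.0, its size factors in edgeR, no filter, the compared groups alone, limma 3.58.1 on log2(FPKM + 1) and log2(FPKM + 0.1), each library left out, and replicate blocks. Same-numbered libraries deviated together in fl/fl (r from 0.123 to 0.181 over 4 pairs) and in KO without untreated replicate 1 (0.127 to 0.224 over 3 pairs), each pair over 0.1, so a block within genotype was added after seeing the data; of the regulators it changed the call of Srebf2 in fl/fl, with KO untreated replicate 1 left out. With all KO libraries 2 of 4 pairs were over 0.1, and between genotypes none was. Reads carry no molecular identifiers. The edgeR and limma steps were tested on simulated data, and the DESeq2 step was not. Markers not found in the table by symbol were not used here.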

Additional observations from a re-analysis of the deposited data

Results flagged for a closer look

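In each of the 4 groups, the highest or lowest library of each of the 34 genes was checked for a gap to its neighbour that is large beside the group's range, 136 checks in all, of which 6 were met. Chance meets about 1 in 20 such checks, so this number is no more than chance gives. Fads1 in KO untreated replicate 1 was at 350.1 CPM, against 222.8 to 228.2 in the other 3 KO untreated libraries, and Mvd, mevalonate diphosphate decarboxylase, was at 51.0 CPM in the same library, against 77.6 to 80.5. Fasn, fatty acid synthase, was at 176 CPM in KO untreated replicate 2, against 257 to 268. Acat2, acetyl-CoA acetyltransferase, was at 24.3 CPM in fl/fl untreated replicate 3, against 36.5 to 38.7. Among the KO TGF-β1 libraries, Nsdhl was at 27.6 CPM in replicate 3, against 30.4 to 30.7, and Pmvk at 19.5 CPM in replicate 1, against 14.1 to 14.9.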

How the results depend on the processing

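The number of genes that fell with TGF-β1 in fl/fl ran from 9 to 16 over 11 alternatives and from 4 to 12 when 1 library was left out, against 11. Of all genes, 3.34% to 11.4% fell over those alternatives and 5.13% to 9.23% when 1 library was left out. The share of 3.34% is that of DESeq2, of the 35275 genes. The number that rose, 1, was 0 without the filter, with the replicate block over both genotypes and with the block within genotype. It was also 0 by limma on FPKM with either pseudocount, and 0 to 1 when 1 library was left out. The cause was not tested. Of all genes, 3.34% to 10.2% rose over the alternatives and 5.41% to 8.91% when 1 library was left out. In KO, where all libraries gave 0, leaving out 1 library gave 0 to 2 higher and 0 to 1 lower. The 2 and 1 came without KO untreated replicate 1 (8.33% and 6.88% of all genes). With that library left out, the replicate block gave 2 higher and 2 lower (7.41% and 5.89%). The block within genotype gave 3 and 4 (9.61% and 7.76%). With fl/fl TGF-β1 replicate 4 left out too and no block, there were 2 and 4 (9.19% and 9.93%). KO against fl/fl untreated gave 1 lower by DESeq2 (0.102% of the 35275 genes were) and 0 otherwise. No member was called between genotypes with TGF-β1, or for the difference of the responses, under any alternative run, blocks included. Of all genes, at most 0.0765% were called in either direction in these. Signs of regulators turned, always near 0. Scap in untreated KO against fl/fl turned without fl/fl untreated replicate 2, and was -0.109 to 0.00778 when 1 library was left out. Insig1 in KO against fl/fl with TGF-β1 was 0.0376 and 0.0382 by limma with pseudocounts 1 and 0.1, and 0.0336 and 0.0268 without fl/fl TGF-β1 replicate 1 or 2 (-0.106 to 0.0336 over all libraries left out in turn). For the difference of responses, Insig2 was 0.0109 without fl/fl untreated replicate 2 and 0.0123 without KO untreated replicate 3 (-0.107 to 0.0123 over all), and Srebf1 was 0.0342 without KO untreated replicate 1 and fl/fl TGF-β1 replicate 4. Fitting only the compared groups was not run for that difference, which needs all 4. Neither the size factors nor limma moved the median of all genes by 0.1 (log2). The settings without 2 libraries and with a block within genotype were chosen after seeing the data. The lowest count of any member in any library was 63, and with 4 libraries a group the spread between them limits which small changes can pass.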
